A study of Homo sapiens with 12 samples.

Results

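The question addressed here was which transcripts differed when a PD1-blocking antibody was given without a LAG3-blocking one. The comparison set 3 libraries with anti-PD1 plus isotype antibody against 3 libraries with isotype antibody alone, matched by antibody dose. These 6 of the 12 libraries in the series were chosen by their treatment labels. Jurkat cells, a human T cell leukaemia line labelled LAG3+PD1+, had been cultured for 24 h with Raji-PDL1 cells, a human B lymphoma line. The Raji cells had been loaded with the enterotoxin SED at 100 ng/ml. The anti-PD1 arm held MK3475 and isotype antibody at 0.01, 0.1 or 1 µg/ml each, and the isotype arm held isotype antibody in both positions at those doses. The other libraries held anti-LAG3 (MK4280) alone or both antibodies, 3 libraries each. All arms shared both cell lines, the toxin and the culture time.

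PD1 is an inhibitory receptor of T cells that, once bound by its ligand PDL1, dampens signals from the T cell receptor and from costimulatory receptors. Enterotoxins of this class bind MHC class II on a B cell and T cell receptors on a T cell, and so start T cell receptor signalling without a specific peptide. Antibodies that keep PD1 from its ligand are used to release T cell activity against tumours.

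Each condition had 1 library, made from pooled wells, so the 3 doses of an arm served as its replicates. Any p-value here therefore reflects the spread among these libraries, some of which may be technical, and not repeated cultures. The anti-PD1 libraries held 23593973 to 28361652 counts and the isotype libraries 26457020 to 36581754. RNA came from both cell lines together, so fewer cells of a type and less RNA per cell cannot be told apart. Levels are given as CPM, counts scaled to the library size, differences as log2 of anti-PD1 over isotype, and a gene was called changed at an adjusted p under 0.05. Adjusted p-values come from the quasi-likelihood F test of edgeR, adjusted by Benjamini-Hochberg over all tested genes, and log2 differences carry their standard error after ±.

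Both cell lines were visible in every library. All 26 Jurkat T cell markers and all 30 Raji B cell markers passed the filter on low counts, and 0 markers of either list were called, against 3.82% of all tested genes. The kinase LCK, a T cell marker, had 319, 314 and 318 CPM at 0.01, 0.1 and 1 µg/ml of anti-PD1, against 272, 276 and 317 CPM in the isotype libraries. LEF1, a transcription factor and the other T cell marker named by level, had 236, 243 and 265 CPM with anti-PD1, against 234, 236 and 254 CPM with isotype. The B cell marker IGHM, the heavy chain of IgM, had 1982, 1990 and 1903 CPM with anti-PD1, against 1756, 1752 and 2071 CPM with isotype. The mean log2 level of the B markers, taken from that of the T markers, left -1.69 ± 0.0925 in the anti-PD1 arm and -1.739 ± 0.0238 in the isotype arm (SD, n = 3 each). The difference of 0.0484 had p = 0.5 in a two-sided exact permutation test, in which 3 against 3 libraries cannot go below 0.1. With the median of the markers in place of the mean the difference was -0.0881, with p = 0.1 in that exact test.

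PDCD1, the gene of PD1 itself, had 204, 211 and 203 CPM at 0.01, 0.1 and 1 µg/ml of anti-PD1, against 179, 191 and 218 CPM with isotype. The groups overlapped, and its log2 difference of 0.08 ± 0.05 was not called (adjusted p = 0.5 with edgeR). CD274, which encodes PDL1, had 91.2, 90.9 and 84.0 CPM with anti-PD1 and 93.3, 93.4 and 88.5 CPM with isotype, and was not called either (adjusted p = 0.708 with edgeR). LAG3, IL2 and IFNG had at most 2 counts in any of these 6 libraries and were not tested. For LAG3 this was 1, 0 and 2 counts with anti-PD1, against 1, 1 and 2 counts with isotype, so the label LAG3+ of the Jurkat line could not be seen at the counted gene at this depth.

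Across 15535 tested genes, 594 were called between the arm means (3.82%). Of these, 325 rose with anti-PD1 (2.09%) and 269 fell (1.73%). The changes were small, with a median size of 0.237 on the log2 scale among called genes. Most pointed the same way at each dose, 323 of the 325 and 268 of the 269. Genes called on these same libraries tend to have 1 direction and separate arms by their selection, so this is not separate evidence. The 3 anti-PD1 libraries all lay above the 3 isotype libraries in 322 of the genes that rose, and in 11.3% of all tested genes. They all lay below in 245 of the genes that fell, and in 11% of all tested genes. The calls rested on single libraries, since 0 genes remained without the anti-PD1 library at 0.01 µg/ml and 0 without the isotype library at 0.1 µg/ml. Leaving out the anti-PD1 library at 0.1 µg/ml gave 201, the isotype library at 0.01 µg/ml 215, the isotype library at 1 µg/ml 1044 and the combination library at 0.1 µg/ml 335.

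The genes that rose were richer in G and C, and the genes that fell were poorer in them and longer. Median transcript GC content was 60.5% in the genes that rose, 40.7% in the genes that fell and 48.5% in all tested genes, and the median gene length was 3223, 8492 and 4421 bp in the same order of sets. Of the 2737 genes in the top quintile of GC content, 209 rose and 0 fell. Of the 2738 genes in the bottom quintile, 0 rose and 140 fell. The median difference of the top quintile was 0.11, 0.14 and 0.04 at 0.01, 0.1 and 1 µg/ml, and that of the bottom quintile was -0.07, -0.12 and -0.01. For anti-LAG3 minus isotype these medians were 0.139, 0.0955 and 0.0743 at the top and -0.1, -0.054 and -0.0427 at the bottom. The combination minus isotype had -0.00223, 0.0301 and -0.0109 at the top and -0.021, -0.0221 and 0.00676 at the bottom. The dependence of each library on length and GC content was estimated by a loess fit and used as an offset, the correction named below. With it 106 genes were called, of which 51 rose (0.328%) and 55 fell (0.354%), and 94 of them were among the 594. The fit took in all gene symbols with a GC value, tested or not, and genes without a GC value got no offset. How much of the dependence it took out was not tested. The part that this gradient has in any single result was not tested.

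**Figure D1:**
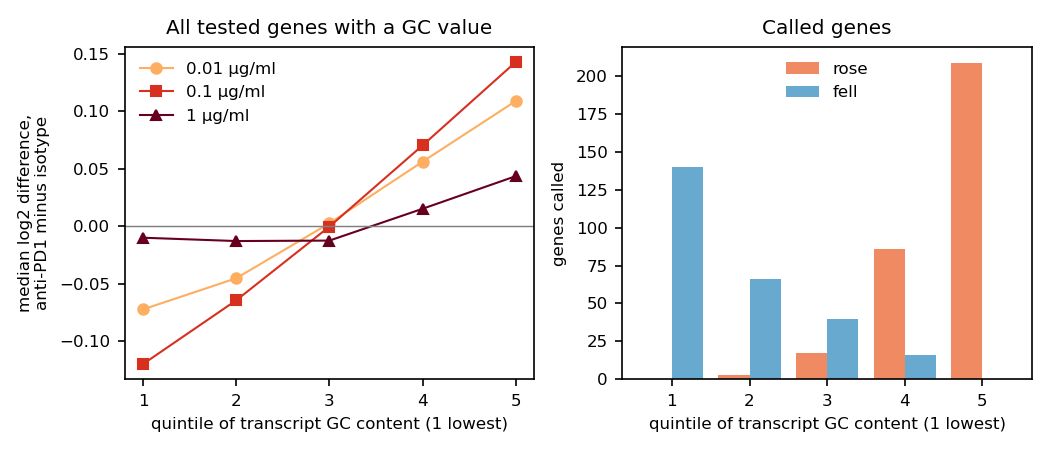
The left panel plots the median log2 difference, anti-PD1 minus isotype, against the quintile of transcript GC content, with a line for each dose. The right panel counts called genes in each quintile, with 209 rises in the top quintile and 140 falls in the lowest.

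The 12 largest rises ran from 0.64 for TRAPPC5 to 0.43 for NUDT18 on the log2 scale. TRAPPC5, a subunit of the TRAPP complex that tethers vesicles on their way to the Golgi, had 14.4, 12.8 and 11.8 CPM at 0.01, 0.1 and 1 µg/ml of anti-PD1, against 8.61, 8.13 and 8.05 CPM with isotype. Its log2 difference was 0.64 ± 0.10 (adjusted p = 0.00389 with edgeR), and it was higher with anti-PD1 at all 3 doses with no overlap. TMEM160, a membrane protein, had 36.5, 31.5 and 32.9 CPM with anti-PD1, against 23.8, 26.0 and 23.5 CPM with isotype. ENDOG, the mitochondrial endonuclease G, had 24.98, 22.1 and 21.8 CPM with anti-PD1, against 16.8, 17.1 and 15.3 CPM with isotype. The log2 differences were 0.46 ± 0.07 for TMEM160 (adjusted p = 0.00389 with edgeR) and 0.49 ± 0.08 for ENDOG (adjusted p = 0.00428 with edgeR). All 3 of these genes were also called with the length and GC correction. In the combination arm, which also held anti-PD1, the log2 differences from isotype of TRAPPC5, TMEM160 and ENDOG were 0.12, 0.06 and 0.00044. Those of anti-LAG3 minus isotype were 0.68, 0.47 and 0.47 in the same order.

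Among the remaining large rises, DOK2, an adaptor that restrains signalling below the T cell receptor, had 17.2, 20.7 and 23.4 CPM with anti-PD1, against 15.1, 14.2 and 15.2 CPM with isotype. All anti-PD1 libraries were above all isotype libraries, and the gap was widest at 1 µg/ml. Its log2 difference was 0.46 ± 0.09 (adjusted p = 0.0138 with edgeR), and that of the combination minus isotype was 0.45. WBP1, RABGEF1, which activates Rab5 on endosomes, and DPM3, a subunit of dolichol-phosphate mannose synthase, rose by log2 differences of 0.51, 0.46 and 0.44, and these too were called after the correction. RPL10P16, a ribosomal protein pseudogene whose reads could come from its parent gene, CYP51A1, CERCAM, ZNF524 and NUDT18 rose by 0.43 to 0.46, with adjusted p of 0.0297 to 0.0425 in edgeR. With the correction their adjusted p in edgeR lay between 0.0592 and 0.138.

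**Figure D2:**
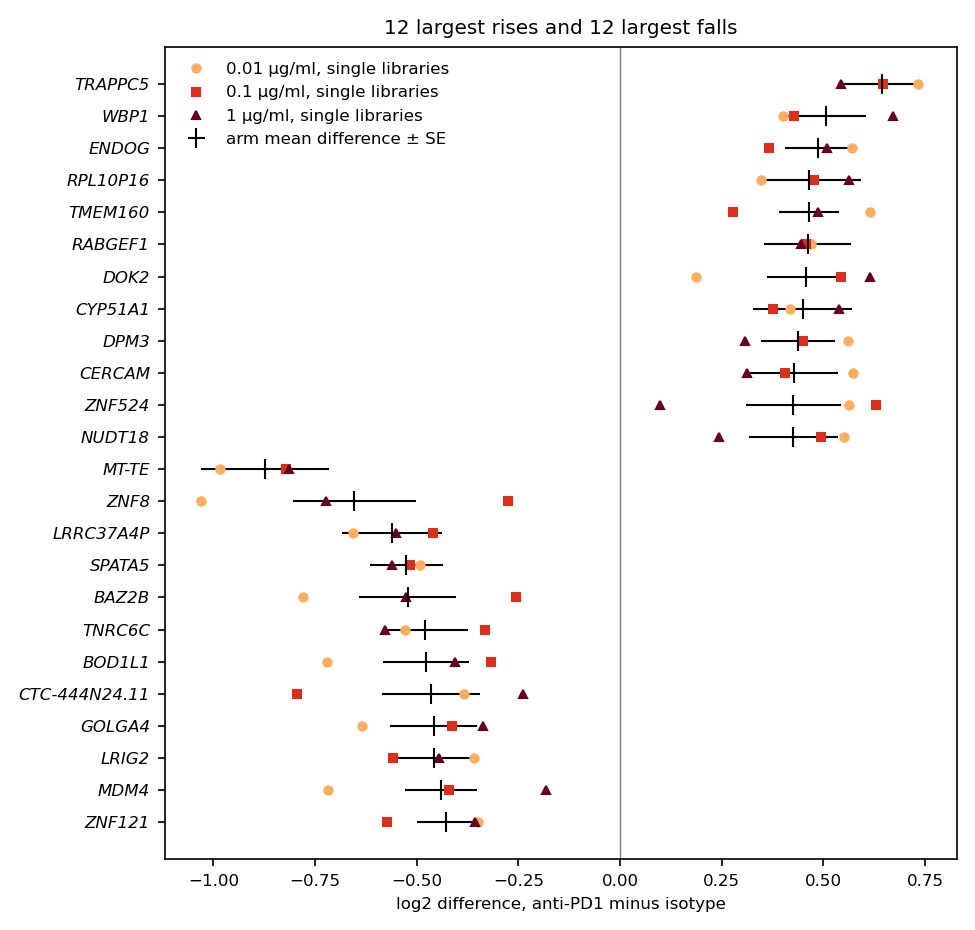
Points show the log2 difference, anti-PD1 minus isotype, between single libraries at 0.01, 0.1 and 1 µg/ml, and vertical bars show the arm mean difference with its standard error. The 12 genes with the largest rises run from TRAPPC5 at 0.64 to NUDT18 at 0.43, and the 12 with the largest falls from MT-TE at -0.87 to ZNF121 at -0.43.

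The 12 largest falls ran from -0.87 for MT-TE to -0.43 for ZNF121 on the log2 scale. MT-TE, the mitochondrial tRNA for glutamate (chrM:14674-14742, GRCh38, minus strand), had 5.06, 5.79 and 6.43 CPM at 0.01, 0.1 and 1 µg/ml of anti-PD1, against 10.1, 10.3 and 11.3 CPM with isotype. The arms were far apart at each dose, and the log2 difference was -0.87 ± 0.16 (adjusted p = 0.0105 with edgeR). MT-TE is 69 bp long. SPATA5, an ATPase that takes part in ribosome maturation, had 14.9, 16.4 and 16.5 CPM with anti-PD1, against 21.0, 23.5 and 24.4 CPM with isotype. No library of the anti-PD1 arm reached the lowest isotype library, and the log2 difference was -0.53 ± 0.09 (adjusted p = 0.005 with edgeR). In the combination arm the log2 differences from isotype of MT-TE and SPATA5 were -0.104 and -0.225, and with anti-LAG3 they were -0.596 and -0.331. Over the 12 falls these ran from -0.0583 (BOD1L1) to -0.433 (TNRC6C) with the combination. With anti-LAG3 they ran from -0.331 (SPATA5) to -0.839 (LRRC37A4P).

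ZNF8 and ZNF121, both zinc finger genes, fell by 0.65 and 0.43 on the log2 scale, and TNRC6C, a component of the microRNA silencing complex, fell by 0.48. MDM4, an inhibitor of p53, had 17.9, 21.1 and 18.0 CPM with anti-PD1, against 29.6, 28.3 and 20.4 CPM with isotype. The arms overlapped, because the isotype library at 1 µg/ml lay below the anti-PD1 library at 0.1 µg/ml, and the log2 difference was -0.44 ± 0.09 (adjusted p = 0.012 with edgeR). LRRC37A4P, a transcribed pseudogene, fell by 0.56. These 5 genes, MT-TE and SPATA5 were also called with the length and GC correction. For MT-TE the correction left the log2 difference at -0.874, so that call is no separate check. BAZ2B, a bromodomain protein, BOD1L1, which protects stalled replication forks, the Golgi tethering protein GOLGA4 and LRIG2 fell by 0.46 to 0.52. With the correction their adjusted p in edgeR lay between 0.0592 and 0.1. The transcript CTC-444N24.11 fell by 0.46 and has no GC value, so the correction left its log2 difference at -0.465. Of 437 tested genes named ZNF with a number, a set chosen after its values were seen, 1 rose and 16 fell, against 2.09% and 1.73% of all tested genes, and 3 fell with the correction.

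**Figure D3:**
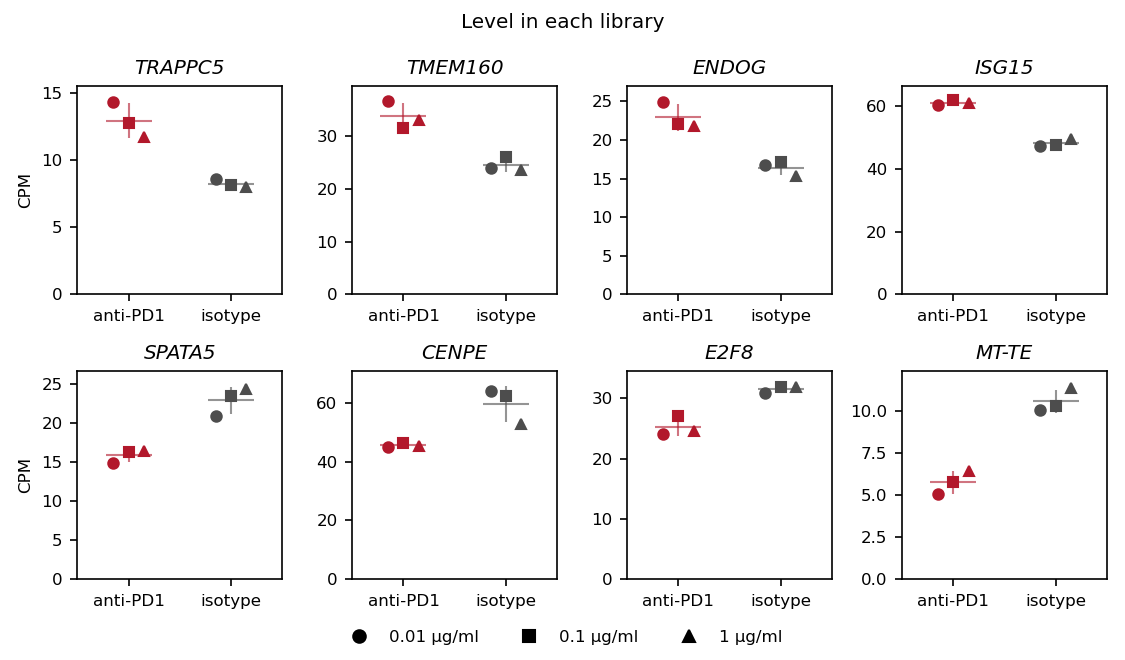
Level in CPM of 8 genes in each anti-PD1 library, left, and each isotype library, right, with marker shapes for 0.01, 0.1 and 1 µg/ml and lines for the mean and its SD (n = 3). The arms of these 8 genes did not overlap, with TRAPPC5 at 11.8 to 14.4 CPM in the anti-PD1 arm and 8.05 to 8.61 CPM in the isotype arm.

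The start regions of EGR1, an early gene with a dose trend given below, and of TRAPPC5 and TMEM160, among the largest rises, are shown from 250 bases before to 50 after the annotated start (RefSeq, GRCh38.p14). They were searched on both strands for TGACTCA (AP-1), TGACGTCA (CRE), GCGTGGGCG (EGR), a serum response element and 2 forms of the NF-kB site. The serum response element was searched only in the exact form capitalised in the EGR1 window. Other forms of it were not searched and stay in lower case. Capitals mark a match, and each sequence is 5′ to 3′ along the gene.
EGR1: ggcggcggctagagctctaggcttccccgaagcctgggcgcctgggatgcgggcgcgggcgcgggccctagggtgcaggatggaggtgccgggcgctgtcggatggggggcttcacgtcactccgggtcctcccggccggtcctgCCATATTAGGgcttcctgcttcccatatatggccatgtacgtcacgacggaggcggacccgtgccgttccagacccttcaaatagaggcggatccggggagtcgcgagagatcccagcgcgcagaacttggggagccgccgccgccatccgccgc
TRAPPC5: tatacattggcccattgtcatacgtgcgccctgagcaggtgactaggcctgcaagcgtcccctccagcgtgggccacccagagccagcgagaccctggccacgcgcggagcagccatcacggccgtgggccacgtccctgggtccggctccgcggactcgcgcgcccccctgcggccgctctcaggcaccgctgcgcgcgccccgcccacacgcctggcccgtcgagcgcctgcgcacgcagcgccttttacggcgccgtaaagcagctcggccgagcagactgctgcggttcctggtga
TMEM160: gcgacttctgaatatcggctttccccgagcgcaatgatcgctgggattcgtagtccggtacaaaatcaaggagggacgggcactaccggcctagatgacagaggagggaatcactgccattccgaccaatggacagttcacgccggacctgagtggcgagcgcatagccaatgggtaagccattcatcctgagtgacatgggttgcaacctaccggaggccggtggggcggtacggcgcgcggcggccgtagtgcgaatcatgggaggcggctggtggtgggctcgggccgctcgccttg
The EGR1 window lies at chr5:138465229-138465528 on the plus strand, that of TRAPPC5 at chr19:7680583-7680882 on the plus strand and that of TMEM160 at chr19:47048575-47048874 on the minus strand. EGR1 held the searched form of the serum response element at bases 146 to 155 of the window. That exact form was found in 12 of 35116 such windows (0.0342%). The share of windows with any form of the element was not counted. The TRAPPC5 and TMEM160 windows held 0 of these motifs, as did those of ENDOG and WBP1, where AP-1 letters occurred in 4.95%, CRE letters in 1.85% and EGR letters in 0.795% of all windows.

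**Figure D4:**
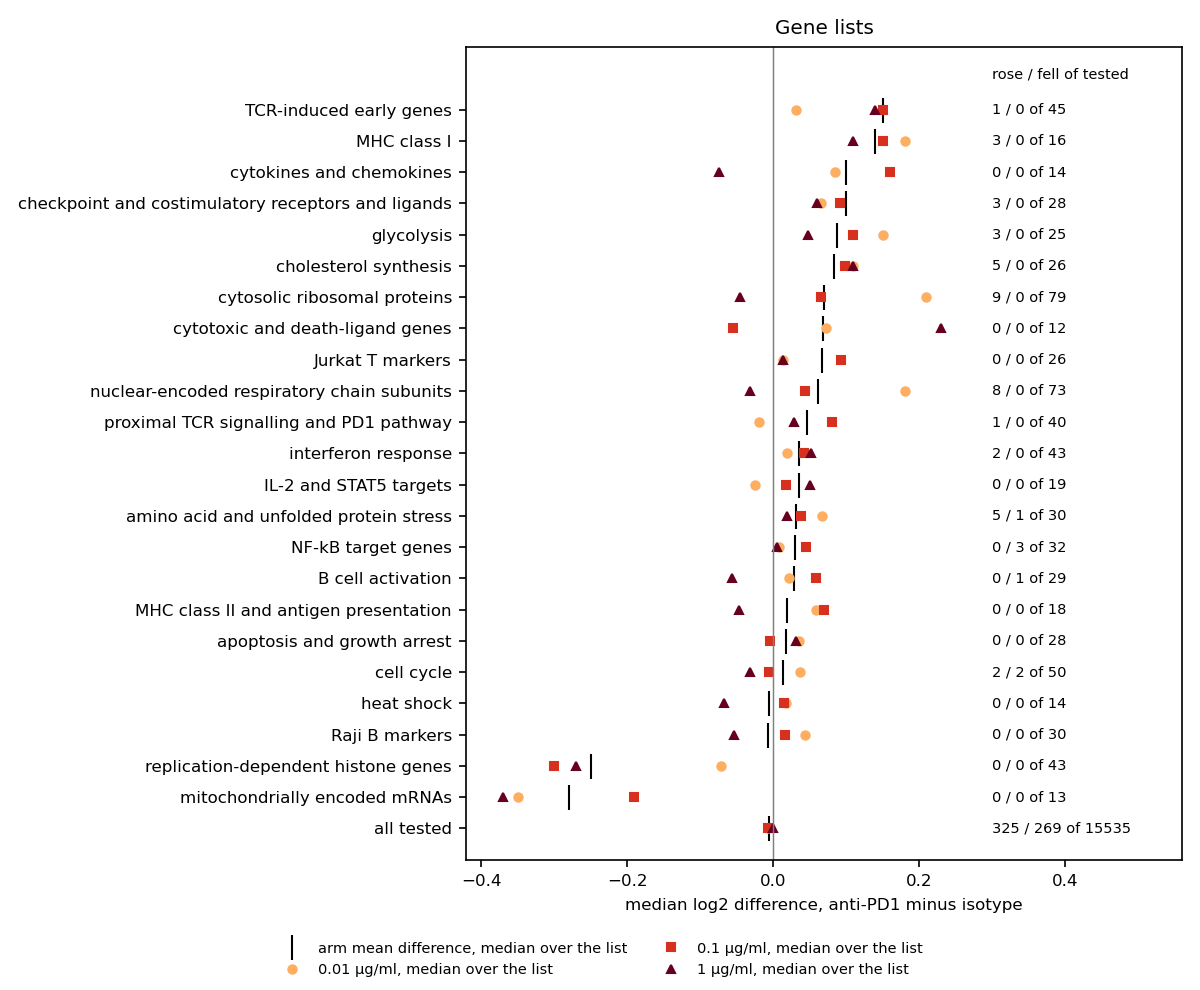
Median log2 difference, anti-PD1 minus isotype, over the tested genes of each list, for the arm means and for single libraries at 0.01, 0.1 and 1 µg/ml, with the numbers that rose and fell. Medians run from 0.15 for TCR-induced early genes to -0.28 for mitochondrially encoded mRNAs, against -0.0053 for all tested genes.

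Genes that T cell receptor signalling induces early were mostly not called between the arm means. Of 45 tested, 1 rose and 0 fell (2.22%, against 2.09% of all genes), although the list's median difference was 0.15, against -0.0053 for all tested genes. JUNB, an AP-1 subunit, was the one that rose, with 122, 129 and 118 CPM at 0.01, 0.1 and 1 µg/ml of anti-PD1, against 102, 106 and 115 CPM with isotype. Every anti-PD1 library was above every isotype library, by little at 1 µg/ml, and the log2 difference of 0.19 ± 0.05 (adjusted p = 0.0291 with edgeR) had an adjusted p of 0.23 with the correction. CD69, an early activation marker of the T cell surface, had 11.5, 15.9 and 25.9 CPM with anti-PD1, against 12.2, 13.5 and 11.2 CPM with isotype. The arms were alike at 0.01 µg/ml and apart at 1 µg/ml, and the arm mean difference was 0.46 ± 0.36 (adjusted p = 0.568 with edgeR). EGR1, a transcription factor induced within minutes of receptor signalling, had 16.2, 20.6 and 33.5 CPM with anti-PD1, against 18.6, 16.9 and 18.2 CPM with isotype (log2 difference 0.31 ± 0.38, adjusted p = 0.739 with edgeR).

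Of the 40 genes of proximal T cell receptor signalling and the PD1 pathway, 1 rose and 0 fell (2.5%, against 2.09% of all tested genes). SIT1, a transmembrane adaptor that recruits the phosphatase SHP2, had 88.8, 90.4 and 94.2 CPM with anti-PD1, against 73.5, 75.02 and 79.7 CPM with isotype. The arms did not overlap, and the log2 difference of 0.26 ± 0.05 (adjusted p = 0.00849 with edgeR) was called with the correction too (adjusted p = 0.0389 with edgeR). Among 28 tested checkpoint and costimulatory receptors and ligands, 3 rose and 0 fell (10.7%, against 2.09%). TNFSF9, the ligand of 4-1BB, had 42.4, 39.8 and 37.7 CPM with anti-PD1, against 31.7, 33.7 and 33.1 CPM with isotype. TNFRSF14, the receptor HVEM, had 28.8, 29.01 and 28.1 CPM with anti-PD1, against 24.1, 25.02 and 23.3 CPM with isotype. LGALS9, the lectin galectin-9, had 37.4, 38.4 and 40.5 CPM with anti-PD1, against 31.7, 32.1 and 35.4 CPM with isotype. All anti-PD1 libraries of these 3 genes were above all isotype libraries, with log2 differences of 0.28, 0.25 and 0.23, and TNFSF9 alone of the 3 was called with the correction (adjusted p = 0.0429 with edgeR, against 0.162 for TNFRSF14 and 0.0907 for LGALS9).

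Of 32 NF-kB target genes, 0 rose and 3 fell (9.38%, against 1.73% of all genes), while the list's median was 0.03. REL, the NF-kB subunit c-Rel, had 59.7, 65.0 and 69.7 CPM at 0.01, 0.1 and 1 µg/ml of anti-PD1, against 86.3, 84.0 and 76.3 CPM with isotype. The arms did not overlap and drew closer toward 1 µg/ml, with a log2 difference of -0.34 ± 0.07 (adjusted p = 0.0197 with edgeR, and 0.0506 with the correction). BIRC3, an inhibitor of apoptosis, fell by 0.17 on the log2 scale (adjusted p = 0.0404 with edgeR, and 0.432 with the correction). ICAM1, an adhesion ligand of LFA-1, fell by 0.17 and was called with the correction as well (adjusted p = 0.0321 with edgeR). It was also the 1 of 29 tested B cell activation genes that was called (3.45% fell, against 1.73% of all genes). ICAM1 had 116, 128 and 115 CPM with anti-PD1, against 127, 135 and 142 CPM with isotype, and its arms overlapped.

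Interferon response genes showed 2 rises and 0 falls among 43 tested (4.65%, against 2.09%). ISG15, a ubiquitin-like protein induced by interferon, had 60.4, 61.8 and 60.9 CPM with anti-PD1, against 47.3, 47.6 and 49.4 CPM with isotype. Its arms were tight and apart, with a log2 difference of 0.34 ± 0.05 (adjusted p = 0.00389 with edgeR, and 0.0236 with the correction). BST2, the antiviral protein tetherin, rose by 0.20 ± 0.05 (adjusted p = 0.0281 with edgeR, and 0.109 with the correction). The median of the interferon list was 0.035, close to that of all tested genes. Among 31 symbols listed as cytokines and chemokines, 14 were tested and 0 were called, against 3.82% of all tested genes. The members with the highest levels, TGFB1 and LTB, differed by 0.05 and 0.12, and 9 of the 14 differences were above 0. XCL1 and XCL2, picked after their values were seen, differed by 3.3 ± 1.33 and 1.7 ± 1.46 at mean levels of only 0.17 and 0.22 CPM.

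Genes of MHC class I presentation included 3 rises among 16 tested and 0 falls (18.8%, against 2.09%). TAP1, the peptide transporter, had 176, 170 and 170 CPM with anti-PD1, against 152, 148 and 147 CPM with isotype, and PSMB8, an immunoproteasome subunit, had 152, 144 and 143 CPM with anti-PD1, against 127, 127 and 128 CPM with isotype. In both genes the arms did not overlap. HLA-F rose by 0.29 ± 0.08, though reads of HLA genes may be shared between close relatives. With the correction 0 of the list were called, while its median stayed at 0.14. Of 18 MHC class II genes 0 were called, against 3.82% of all tested genes. CD74, the invariant chain, and HLA-DRA differed by -0.01 and 0.0036.

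Cholesterol synthesis genes had 5 rises among 26 tested and 0 falls (19.2%, against 2.09%), and their median difference was 0.084. CYP51A1, a demethylase of the sterol ring, had 11.1, 9.55 and 10.1 CPM at 0.01, 0.1 and 1 µg/ml of anti-PD1, against 8.25, 7.34 and 6.93 CPM with isotype. Mevalonate kinase, MVK, had 38.0, 33.8 and 35.8 CPM with anti-PD1, against 29.6, 28.8 and 30.7 CPM with isotype. TM7SF2, a sterol reductase, had 32.2, 28.9 and 31.5 CPM with anti-PD1, against 26.8, 23.7 and 26.7 CPM with isotype. The arms of these genes did not overlap, and the others that rose were FDPS and LSS, which make farnesyl diphosphate and lanosterol, by 0.24 and 0.18. With the correction 0 of the 26 were called, the lowest adjusted p being that of FDPS at 0.055 in edgeR, and the median was 0.089.

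Among 25 genes of glycolysis, 3 rose and 0 fell (12%, against 2.09% of all tested genes). They were PFKFB4, which sets the level of an activator of phosphofructokinase, the mutase PGAM1 and the liver-type phosphofructokinase PFKL, by 0.38, 0.24 and 0.20. PGAM1 had 518, 470 and 484 CPM with anti-PD1, against 421, 418 and 406 CPM with isotype, and was the only one of the 3 called with the correction (adjusted p = 0.0472 with edgeR). Of 30 genes of amino acid and unfolded protein stress, 5 rose and 1 fell (16.7% and 3.33%, against 2.09% and 1.73%). DDIT4, an inhibitor of mTORC1 induced by stress, SDF2L1, an endoplasmic reticulum protein, and the pseudokinase TRIB3 rose by 0.31, 0.26 and 0.22. SLC3A2, the heavy chain of the cystine and large amino acid transporters, rose by 0.19, whereas SLC7A11, the cystine transporter's light chain, fell by 0.21. With the correction 0 of these stress genes were called.

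Genes of translation and respiration rose in a minority of members. Of 79 cytosolic ribosomal protein genes, 9 rose and 0 fell (11.4%, against 2.09%), and the medians of the list were 0.21, 0.07 and -0.05 at 0.01, 0.1 and 1 µg/ml. RPS15 had 955, 911 and 876 CPM with anti-PD1, against 742, 781 and 812 CPM with isotype, so its arms were farthest apart at the lowest dose. RPL13, a protein of the large subunit, rose by 0.22. Of 73 nuclear-encoded respiratory chain subunits, 8 rose and 0 fell (11%, against 2.09%), with medians of 0.18, 0.04 and -0.03 in the same dose order. CYC1, cytochrome c1, had 316, 296 and 283 CPM with anti-PD1, against 255, 252 and 255 CPM with isotype, and the complex I subunits NDUFS7 and NDUFA11 rose by 0.24 and 0.23. With the correction 0 ribosomal genes and 1 respiratory chain gene were called. Reads of ribosomal protein genes may be shared with their pseudogenes.

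The 13 mRNAs encoded in mitochondrial DNA were all lower in the arm mean with anti-PD1, and 0 of them was called, against 3.82% of all tested genes. With only the anti-PD1 and isotype libraries 9 were called, with DESeq2 4, without the dose term 1, and without the anti-LAG3 library at 1 µg/ml 8. In the authors' deposited table for 0.01 µg/ml, 10 of the 82 genes with an adjusted p under 0.05 were mitochondrially encoded. At 1 µg/ml it was 2 of 55, and at 0.1 µg/ml 0 genes of any kind passed. The share of mitochondrially encoded genes among all genes with an adjusted p was not counted, and at 0.01 µg/ml 9264 of 14933 genes had none. The median difference of the 13 mRNAs was -0.28, and in 11 of 13 all anti-PD1 libraries lay below all isotype libraries, against 11% of all tested genes. MT-CO1, a subunit of cytochrome c oxidase, had 8186, 8596 and 8957 CPM at 0.01, 0.1 and 1 µg/ml of anti-PD1, against 9452, 9111 and 10340 CPM with isotype (log2 difference -0.17 ± 0.10, adjusted p = 0.425 with edgeR). MT-CO3, another subunit, had 4014, 4228 and 4489 CPM with anti-PD1, against 4361, 4531 and 5813 CPM with isotype, with overlapping arms. All mitochondrially encoded genes together took 3.01% to 3.39% of counts in the anti-PD1 libraries and 3.72% to 4.13% in the isotype libraries.

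Of 50 cell cycle genes, 2 rose and 2 fell (4% each, against 2.09% and 1.73% of all tested genes). CENPE, a kinesin of the kinetochore, had 45.0, 46.4 and 45.3 CPM with anti-PD1, against 63.9, 62.2 and 52.6 CPM with isotype. The arms did not overlap, and the log2 difference was -0.38 ± 0.07 (adjusted p = 0.005 with edgeR). E2F8, a repressor of the E2F family, had 24.1, 27.1 and 24.6 CPM with anti-PD1, against 30.9, 31.9 and 31.9 CPM with isotype. Both genes were called with the correction (adjusted p = 0.0248 each with edgeR), while the thymidine kinase TK1 and the survivin gene BIRC5, which rose by 0.24 and 0.15, were not. MKI67, the proliferation marker Ki-67, is given here after its values were seen, and had 156.5, 235.1 and 140.6 CPM with anti-PD1, against 300.7, 302.3 and 254.7 CPM with isotype. Its arms did not overlap, but its log2 difference of -0.70 ± 0.20 was not called (adjusted p = 0.135 with edgeR). The authors' deposited tables gave it log2 fold changes of -0.86, -0.28 and -1.02 at 0.01, 0.1 and 1 µg/ml, with adjusted p of 4.29e-12, 0.9999 and 6.43e-18. CENPF, a kinetochore protein also picked after its values were seen, differed by -0.42 with no overlap (adjusted p = 0.0594 with edgeR). Of 43 tested replication-dependent histone genes 0 were called, against 3.82% of all tested genes. Their median was -0.25, with levels under 11 CPM for HIST1H2BK and HIST1H4C, the highest members. mRNAs of this histone class lack a poly(A) tail, and the labels name the molecule as polyA RNA but describe an extraction of total RNA.

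In the lists of apoptosis and growth arrest, cytotoxic and death-ligand genes, IL-2 and STAT5 targets, and heat shock, 0 of 28, 12, 19 and 14 tested genes were called, against 3.82% of all tested genes. With no filter on low counts 3 of the apoptosis list and 1 of the heat shock list were called, and with 1 library left out up to 3 and 2. FAS, the death receptor, differed by -0.10, LAMP1 by 0.03, MDM2 by -0.07 and MCL1 by 0.00018. CCND3, the cyclin D3 gene, differed by 0.15 with no overlap between the arms (adjusted p = 0.086 with edgeR), and MYC by -0.05. The chaperone genes HSP90AB1 and HSP90AA1 differed by -0.0047 and -0.07.

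The anti-PD1 difference changed with dose for 41 of 15535 genes (0.264%). For each arm a slope on the log10 of dose was fitted, and the isotype slope was subtracted from the anti-PD1 slope, in log2 units per 10-fold dose. The slope was above isotype for 13 genes (0.0837%) and below for 28 (0.18%), and 0 of the 41 genes were called between the arm means. DESeq2 gave 58 genes, 4 above and 54 below, of which 26 were among the 41, and the length and GC correction gave 64, 11 above and 53 below. CD69 had a slope of 0.66 ± 0.09 (adjusted p = 0.00139 with edgeR), and EGR1 had one of 0.55 ± 0.08 (adjusted p = 0.00174 with edgeR). Both genes also climbed from 0.01 to 1 µg/ml in the other antibody arms, whose slopes were not tested against isotype. CD69 went from 12.1 to 28.1 CPM with anti-LAG3 and from 13.6 to 52.2 CPM with the combination. EGR1 went from 16.7 to 52.1 CPM with anti-LAG3 and from 19.69 to 82.45 CPM with the combination. In 12 of the 13 genes with a slope above isotype the highest of the 6 libraries was anti-PD1 at 1 µg/ml. Selection by slope on these same libraries favours that order, so it is not separate evidence, and its share among all tested genes was not counted. The calls rested on single libraries, since 0 genes were called without the isotype library at 1 µg/ml, 12 without the anti-PD1 library at 1 µg/ml, 122 and 6 without the anti-PD1 library at 0.1 and at 0.01 µg/ml, and 64 and 65 without the isotype library at 0.1 and at 0.01 µg/ml. With each of the 12 libraries left out in turn, the slope was 0.449 to 0.865 for CD69 and 0.346 to 0.713 for EGR1.

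The genes with the smallest p among those that climbed with anti-PD1 included several of T cells, chosen here after their values were seen. TRAC, the constant segment of the T cell receptor alpha chain, had 107, 140 and 208 CPM at 0.01, 0.1 and 1 µg/ml of anti-PD1, against 101, 102 and 119 CPM with isotype. Its slope exceeded that of isotype by 0.36 ± 0.06 (adjusted p = 0.00235 with edgeR), and TRAV8-4, a variable segment of the same chain, had a slope of 0.30 ± 0.05. UBASH3B, a phosphatase that dampens T cell receptor signalling, had 89.0, 105 and 140 CPM with anti-PD1, against 88.2, 87.3 and 85.9 CPM with isotype. PRKCH, protein kinase C eta, had 43.9, 55.7 and 70.4 CPM with anti-PD1, against 47.9, 43.0 and 45.7 CPM with isotype. In UBASH3B and PRKCH the isotype libraries were nearly level while anti-PD1 climbed with dose. From 0.01 to 1 µg/ml PRKCH also climbed from 44.3 to 64.7 CPM with anti-LAG3 and from 46.3 to 127.8 CPM with the combination. UBASH3B climbed from 89.5 to 100.4 CPM with anti-LAG3 and from 87.8 to 150.5 CPM with the combination. IER3, an early response gene, had 8.95, 10.6 and 18.5 CPM with anti-PD1, against 8.61, 9.02 and 8.97 CPM with isotype, and the slopes of the long noncoding RNA CASC15 and of SLFN5 were 0.43 and 0.38.

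**Figure D5:**
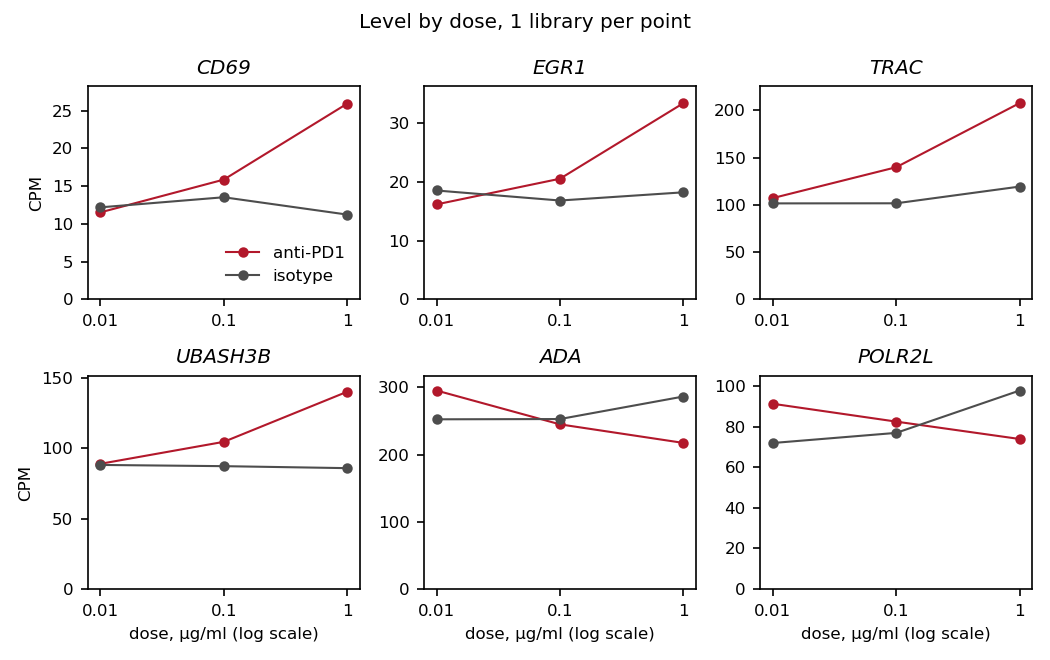
Level in CPM against antibody dose on a log axis, 1 library per point, for anti-PD1 and isotype. CD69, EGR1, TRAC and UBASH3B climbed with the dose of anti-PD1, to 25.9, 33.5, 208 and 140 CPM at 1 µg/ml, while in ADA and POLR2L the lines cross.

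In all 28 genes with a slope below isotype the isotype library at 1 µg/ml was the highest of the 3 isotype libraries, and in 26 the anti-PD1 library at 0.01 µg/ml was the highest of its arm. Such an order is favoured by the selection of genes on these same libraries, so it is not separate evidence. Its share among all tested genes was not counted. ADA, adenosine deaminase, had 295, 245 and 217 CPM at 0.01, 0.1 and 1 µg/ml of anti-PD1, against 252, 253 and 286 CPM with isotype, and its slope was -0.31 ± 0.05 (adjusted p = 0.00139 with edgeR). POLR2L, a small RNA polymerase subunit, had 91.2, 82.4 and 73.9 CPM with anti-PD1, against 71.9, 76.9 and 97.7 CPM with isotype. Of the 79 cytosolic ribosomal protein genes 9 had such a slope (11.4%, against 0.18% of all tested genes), among them RPL28 at -0.27, and the cytokine gene MIF had a slope of -0.34. The isotype library at 1 µg/ml was also the deepest of the 6 and had the highest share of mitochondrially encoded counts, 4.13%.

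The single doses, each 1 library against 1, differed in how many genes lay past 1.5-fold among 10106 genes of at least 5 CPM, with no test. At 0.01 µg/ml 9 genes were higher with anti-PD1 (0.0891%) and 67 lower (0.663%). At 0.1 µg/ml 5 were higher (0.0495%) and 14 lower (0.139%), and at 1 µg/ml 28 were higher (0.277%) and 30 lower (0.297%). In the authors' deposited tables, each of which set 1 anti-PD1 library against all 3 isotype libraries, 82 genes had an adjusted p under 0.05 at 0.01 µg/ml, 0 at 0.1 µg/ml and 55 at 1 µg/ml. An adjusted p was missing for 9264 of 14933 listed genes at 0.01 µg/ml, 0 of 15005 at 0.1 µg/ml and 2626 of 15047 at 1 µg/ml. The 3 counts therefore rest on different numbers of genes and do not compare the doses directly. In the authors' deposited table for 0.1 µg/ml, 550 genes had an unadjusted p under 0.05 and the lowest adjusted p was 0.0534. The authors' deposited tables gave CD69 log2 fold changes of -0.09, 0.37 and 1.08 and EGR1 of -0.14, 0.20 and 0.90 at 0.01, 0.1 and 1 µg/ml.

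Anti-PD1 and anti-LAG3 were not told apart by their arm means. Of 15535 genes 0 were called by edgeR (0%), with 691 at an unadjusted p under 0.05, and DESeq2 called 0 as well. ISG15, for example, had 60.4, 61.8 and 60.9 CPM with anti-PD1, against 61.5, 63.8 and 60.5 CPM with anti-LAG3, and TRAPPC5 had 14.4, 12.8 and 11.8 CPM with anti-PD1, against 14.6, 13.1 and 12.0 CPM with anti-LAG3. A missed threshold does not show that the antibodies act alike.

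The combination minus anti-PD1 gave 55 called genes (0.354%), of which 18 rose with the combination and 37 fell. Among the 55, 43 were also called between anti-PD1 and isotype, against 3.82% of all tested genes, and all 43 had the opposite sign there. Both comparisons hold the same anti-PD1 libraries, on opposite sides. Shared calls of opposite sign are therefore favoured by design and are not separate evidence. The genes with the smallest p were SIVA1, an inducer of apoptosis, the mitochondrial dicarboxylate carrier SLC25A10, LAGE3, a subunit of the tRNA-modifying KEOPS complex, and the phosphatase PDXP. SIVA1 had 85.9, 93.9 and 79.2 CPM at 0.01, 0.1 and 1 µg/ml of the combination, 121, 107 and 101 CPM with anti-PD1, and 92.3, 92.1 and 83.8 CPM with isotype. LAGE3 had 36.1, 39.4 and 37.8 CPM with the combination, 52.1, 47.6 and 46.8 CPM with anti-PD1, and 39.1, 40.7 and 37.6 CPM with isotype. In both genes the anti-PD1 libraries were above all combination and isotype libraries, but the anti-LAG3 libraries had similar levels. At 0.01, 0.1 and 1 µg/ml of anti-LAG3, SIVA1 had 118, 120 and 108 CPM and LAGE3 had 51.1, 52.4 and 52.4 CPM. The log2 differences of combination minus anti-PD1 were -0.34 for SIVA1, -0.40 for SLC25A10, -0.37 for LAGE3 and -0.42 for PDXP (adjusted p = 0.00512 each with edgeR). The same anti-PD1 libraries enter this comparison and the one with isotype, in which the 4 genes rose by 0.29, 0.29, 0.32 and 0.42. The count was 0 without the anti-PD1 library at 0.01 µg/ml, 2 without the combination library at 0.1 µg/ml and 7 with the length and GC correction. Leaving out the anti-PD1 library at 0.1 or 1 µg/ml gave 14 or 16, the combination library at 0.01 or 1 µg/ml 193 or 104, the anti-LAG3 library at 1 µg/ml 22, and the isotype library at 0.01, 0.1 or 1 µg/ml 106, 11 or 353.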

How the data were processed

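The build GRCh38, Subread 1.5.2 with featureCounts, STAR 2.5.2b, Trimmomatic 0.36 and DESeq2 are named in the submitters' processing notes. The strand setting, the treatment of multimapping reads and the annotation release are not given there. The authors deposited raw counts for 55782 gene symbols, with a length per symbol, and tables of log2 fold changes, their standard errors and p-values for each antibody library. Antisense partners, pseudogenes and near-identical genes are therefore uncertain. Not used were 4 count columns that match no label and 36 columns of normalised values.

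The deposited counts were analysed in R 4.3.3 with edgeR 4.0.16, on all 12 libraries (23593973 to 36581754 counts, so that a count of 0 allows up to 3 counts, 0.0820 to 0.127 CPM, for counting error only). Genes were kept by filterByExpr with a minimum count of 10 and scaled by TMM. The quasi-likelihood test used arm plus dose (6 residual degrees of freedom), or a slope on log10 dose per arm (4 residual degrees of freedom). P-values were adjusted over 15535 genes at a threshold of 0.05. CPM use TMM-scaled library sizes, and single-dose differences use log2 CPM with a prior count of 2. Transcript GC content came from GENCODE v29 for 88.1% of tested genes. The correction used a loess of span 0.5, fitted over all gene symbols with a GC value, tested or not. The scripts were tested on simulated data.

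The libraries, gene lists and tests were chosen with earlier results of these data known. The genes named were PDCD1, CD274, LAG3, CD69, EGR1, IL2, IFNG and ADA, then the 12 largest rises and falls among called genes of at least 5 CPM with 1 direction at all doses, up to 3 called members of each of 23 lists (otherwise the 2 with the highest level), and the 4 called genes with the smallest p in each other arm comparison. One gene that this rule names is not reported here. FDPS, LSS, SLC3A2, SLC7A11, BIRC5 and the dose-trend genes other than CD69, EGR1 and ADA were chosen after their values were seen. Alternatives were other size factors (RLE), other filters, DESeq2 1.42.0, no dose term, only the 6 libraries, a marker covariate, the correction, and leaving out each library.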

Additional observations from a re-analysis of the deposited data

Results flagged for a closer look

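The difference between anti-PD1 and isotype changed with dose, by a test of the slopes themselves, for 3 of the genes named by rule. The slope of anti-PD1 minus that of isotype, in log2 per 10-fold dose, was 0.659 for CD69, 0.547 for EGR1 and -0.313 for ADA. None of the 3 was called without the isotype library at 1 µg/ml, where the slopes were 0.449, 0.679 and -0.222. With each of the 12 libraries left out in turn they lay at 0.449 to 0.865, 0.346 to 0.713 and -0.401 to -0.222.

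The difference from isotype also differed between the combination and anti-PD1 for 10 named genes, by the test of the combination against anti-PD1. The log2 difference of combination minus anti-PD1 was -0.522 for TRAPPC5, -0.486 for ENDOG, -0.402 for TMEM160, -0.345 for SIVA1, -0.399 for SLC25A10, -0.370 for LAGE3, -0.422 for PDXP and -0.260 for ISG15. It was 0.197 for FAS and 0.312 for CENPE. These values share the anti-PD1 libraries with the comparison to isotype, in which FAS was not called. None of the 10 was called without the anti-PD1 library at 0.01 µg/ml.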

How the results depend on the processing

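The count of 594 genes between anti-PD1 and isotype stayed within 1.5 times with RLE size factors, other filters, DESeq2 and the T minus B marker covariate. Without the dose block (no replicate block) it was 518, of which 506 were among the 594. It was 392 with only the anti-PD1 and isotype libraries, 106 with the length and GC correction, and 0 to 1044 with 1 library left out. The 2 libraries whose loss left 0 calls were anti-PD1 at 0.01 µg/ml and isotype at 0.1 µg/ml, and the cause was not tested. Deviations of same-dose libraries from their arm means had correlations of -0.0652, 0.128 and 0.0926 across genes at 0.01, 0.1 and 1 µg/ml, so that dose paired the arms by design alone.

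The combination minus anti-PD1 gave 349 genes with no filter on low counts, 147 with DESeq2, 5 with the marker covariate, 7 with the correction and 0 to 353 with 1 library left out. The dose slope gave 196 genes with no filter, 64 with the correction and 0 to 122 with 1 library left out. Anti-PD1 minus anti-LAG3 gave 0 genes under each alternative run. The T minus B marker difference was -0.0881 with the median of markers, and 0.0085 to 0.0991 with 1 library left out. More genes enter the test without a filter, and other causes were not tested.

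Of the 24 largest rises and falls, 14 were called with the correction, 17 without the dose term and 0 without either of the 2 libraries above. The 14 include MT-TE, whose log2 difference the correction left at -0.874. Values that changed sign were those of genes not called. With no filter MCL1 was -0.00451 and HLA-DRA -0.00147, with the 5 CPM filter MCL1 was -0.00117, and without the dose term HLA-DRA was -0.000374. With the marker covariate CD274 was 0.000669, CD74 0.0113 and the CD274 slope 0.0637, and with the correction TGFB1 was -0.0188 and MDM2 0.0109. With 1 library left out the ranges were -0.0677 to 0.00299 for CD274, -0.098 to 0.746 for EGR1, -0.283 to 0.156 for ADA, -0.0168 to 0.162 for TGFB1, -0.101 to 0.0348 for MYC, -0.041 to 0.0486 for MCL1, -0.0155 to 0.0171 for HSP90AB1, -0.0667 to 0.104 for CD74, -0.0488 to 0.096 for HLA-DRA, -0.187 to 0.027 for HIST1H2BK, and -0.0749 to 0.0263 for the CD274 slope.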
